A study of Mus musculus with 16 samples.

Results

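The comparison set 5 TMPL tumour organoid libraries against 5 TMP tumour organoid libraries, 10 of the 16 libraries in the series, chosen as every tumour library of either genotype in the sample labels. TMP organoids carry Trp53-/-, Myc and sgCdkn2a, and TMPL organoids carry these alterations and LMP1. All came from C57BL/6 mice as tumours that grew in recipients after orthotopic transplantation into the nasopharynx, and polyadenylated RNA was sequenced from the organoids derived from them. Titles divide each genotype by a Lung prefix: Ctr (TMP, 3 libraries) and LMP1 (TMPL, 2 libraries) lack it, and Lung-Ctr (TMP, 2 libraries) and Lung-LMP1 (TMPL, 3 libraries) have it. The labels give no age, no time, no promoter for Myc or LMP1 and no altered stretch of Trp53 or Cdkn2a, and they do not say whether replicates are separate animals or cultures. P-values therefore measure only the spread between these libraries, which may be technical. In the sample descriptions the word primary goes with all 5 TMP libraries and the word metastasis with all 5 TMPL libraries, although the treatment protocol speaks of primary and metastasized organoids without tying either to a genotype. Genotype and labelled site therefore cannot be told apart, and "TMPL" below means both together.

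LMP1 is the latent membrane protein 1 of Epstein-Barr virus, the virus associated with nasopharyngeal carcinoma. It signals without a ligand from the cell membrane, through TRAF adaptors, to NF-kB, JNK, ERK and JAK-STAT pathways, in the manner of a permanently active CD40 receptor. Myc is a transcription factor known for driving ribosome production, nucleotide synthesis and cell growth, and p53, the product of Trp53, and the products of Cdkn2a are brakes on the cell cycle. The gene tables hold no entry for LMP1, so the label was not checked against the transgene itself.

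Libraries held 12535166 to 18067227 counts, so that 3 counts, the limit that a count of 0 allows, correspond to 0.166 to 0.2393 counts per 1000000 (CPM). CPM of single genes below are scaled by TMM factors, which adjust each library for its composition, marker sums are per plain library total, and limits from counts cover counting error only. Epithelial markers (Epcam, Cdh1, keratins and others, 7 genes) summed to 2770 to 6830 CPM in TMP and 977 to 6430 in TMPL, and basal epithelial markers (6 genes) to 504 to 4310 and 49.1 to 3660. The 2 LMP1 libraries were the lowest on both, at 977 and 1490 CPM and at 49.1 and 68.7 CPM. Defining markers of other tissues were low: endothelial markers summed to at most 2.86 CPM in any library, with Cldn5 and Emcn at 0 throughout, leukocyte markers to at most 3.38 CPM, and skeletal muscle markers to at most 0.878 CPM, with Myod1 at 0. Fibroblast markers summed to 64.6 to 180 CPM in TMP and 55.9 to 118 in TMPL. Fbln1 (62.3 to 126 and 21.1 to 72.1) carried most of this, except in Ctr replicate 2 and both LMP1 libraries, where Col3a1 exceeded it. The fibroblast collagen gene Col3a1 was at 95.2 CPM in Ctr replicate 2, 60.8 and 24.8 in LMP1 and at most 0.139 elsewhere, Dcn at 10.2, 10.5 and 9.13 in the same 3 libraries and at most 0.239 elsewhere, and Pdgfrb at 1.08, 7.91 and 4.67 and at most 0.0612 elsewhere. Airway secretory markers summed to 3.06 to 81.6 CPM in TMP and 5.89 to 378 in TMPL, the highest being Lung-LMP1 replicate 2. In bulk RNA, fewer cells of a type and less RNA per cell cannot be told apart, and the part of cell makeup in the results below was not tested.

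The genes of the TMP genotype were examined first. Myc was measured at 793, 642 and 620 CPM in Ctr, 463 and 575 in Lung-Ctr, 1910 and 1770 in LMP1, and 1300, 611 and 1100 in Lung-LMP1. Every TMPL library was above every TMP library of its own stratum, and the only overlap between genotypes came from Lung-LMP1 replicate 2, at 611 CPM. The fitted difference was 1.19 ± 0.208 (SE) on the log2 scale, a 2.28-fold higher level in TMPL (adjusted p = 0.00988). After the correction for length and GC content described below, the strata no longer both separated, and the difference was 1.13 (adjusted p = 0.0245). This and every adjusted p below come from edgeR's quasi-likelihood test on the 10 libraries with the Lung prefix as a covariate and Benjamini-Hochberg adjustment over the 13460 genes tested, unless stated otherwise, and a gene is called higher or lower at an adjusted p under 0.05. Trp53 transcripts lay at 56.2 to 86.9 CPM in TMP and 87.8 to 110 in TMPL, with no overlap, and rose 1.47-fold (log2 fold change 0.56 ± 0.141, adjusted p = 0.033; 0.49 and 0.0841 after correction). The Trp53 call was lost in 7 of the 10 fits that left out 1 library (each of both LMP1, of Ctr 1 and 3, of Lung-Ctr 1 and of Lung-LMP1 2 and 3; adjusted p = 0.0506 to 0.127). Cdkn2a ranged from 123 to 364 CPM in TMP and from 177 to 363 in TMPL, and the difference of 0.18 ± 0.294 did not pass the test (adjusted p = 0.723). Reads over Trp53 and Cdkn2a show transcript remaining and check neither alteration, because the altered parts are not stated. The labels do not say whether the Myc counts come from an added gene, the endogenous gene or both.

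Of 13460 genes tested, 972 (7.22%) were higher and 691 (5.13%) lower in TMPL, 1663 in all (12.4%), while 4076 (30.3%) had an unadjusted p under 0.05. DESeq2 with its own size factors gave 1387 higher and 1748 lower, and the mean of the 2 strata with equal weights 1141 higher and 1293 lower, so the majority of calls shifted from higher to lower. Called rises had a median log2 fold change of 0.80 and called falls of -0.73, and 282 rises and 167 falls exceeded 1 in size. A change was counted as shared when the libraries of the genotypes did not overlap, in the same direction, both among the 5 libraries without the Lung prefix and among the 5 with it. Such separation held for 890 of the 972 rises (6.61% of genes tested) and 600 of the 691 falls (4.46%), beside 1362 (10.1%) of all genes tested for rises and 1084 (8.05%) for falls, and 466 (3.46%) separated in opposite directions. The 2 contrasts share no library. Across all genes, 63.4% had the same sign in both, with a Spearman rho of 0.266 (across 13460 genes, which are not independent replicates). Among called rises the median log2 fold change was 0.89 for LMP1 against Ctr and 0.70 for Lung-LMP1 against Lung-Ctr, and among called falls -0.86 and -0.60. These medians are a description, since the call used both strata.

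Taken alone, the strata differed in how many genes passed. LMP1 against Ctr gave 991 higher (7.36%) and 1219 lower (9.06%) genes in the fit with 1 mean per group, and Lung-LMP1 against Lung-Ctr gave 0, with 2295 genes (17.1%) at an unadjusted p under 0.05 and 881 calls with DESeq2. An unadjusted p under 0.05 in both strata was found for 714 genes higher in both, 449 lower in both and 119 in opposite directions. The test of the difference between the 2 contrasts called 120 genes (0.892%), 3 of them among the 1663. Without both LMP1 libraries, a setting added after the data were seen, no gene was called in either direction by edgeR (1841 at an unadjusted p under 0.05). The adjusted calls below therefore rest on the LMP1 libraries, and a value for the Lung-prefixed stratum is given beside the main ones. These 2 libraries were also more alike than any other pair within a group. Fits without LMP1 replicate 1 gave 328 rises and 96 falls, and without LMP1 replicate 2, 229 and 34.

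**Figure D1:**
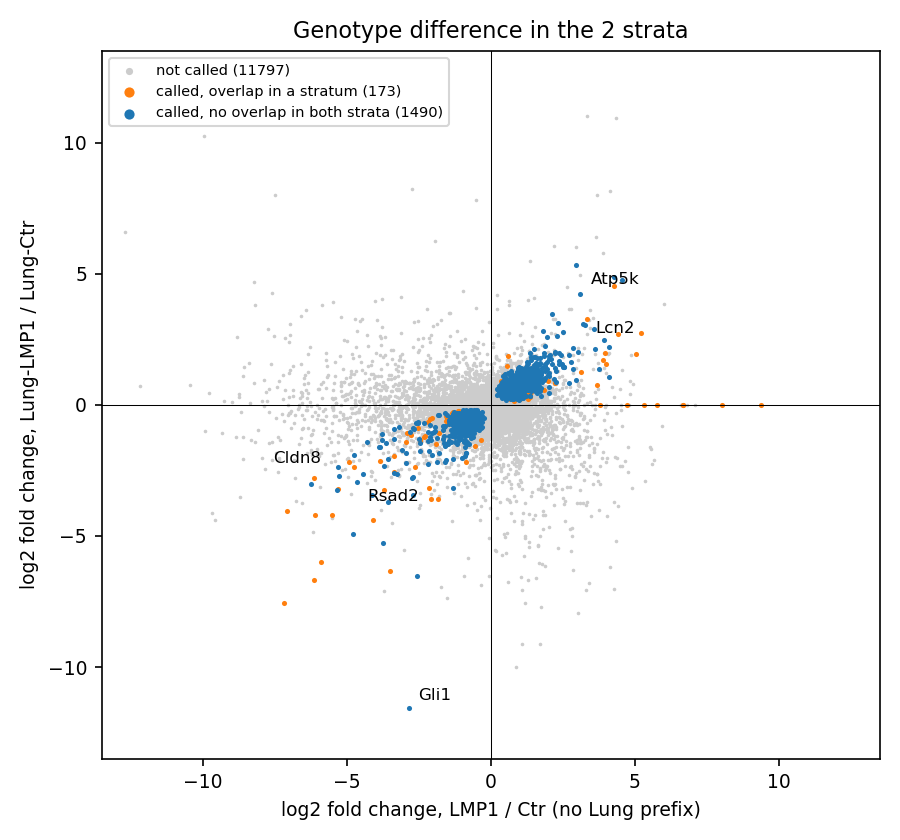
Each point is a gene, with the log2 fold change of LMP1 against Ctr on the horizontal axis and of Lung-LMP1 against Lung-Ctr on the vertical axis. The 1490 blue points are called and do not overlap between genotypes in either stratum, and all lie in the upper right or lower left.

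A property of the libraries moved with genotype. Called rises had a median transcript GC content of 54.9% and length of 2678 bases, called falls 42.6% and 4425, and all genes tested 49.9% and 3352. Each library's deviation from the mean of all libraries correlated with GC content at a Spearman rho of -0.378 to -0.0966 in the 5 TMP libraries and 0.0679 to 0.317 in the 5 TMPL libraries, so the genotypes did not overlap on this measure. Over 10 equal bins of genes ordered by GC content, the median log2 fold change ran from -0.43 in the lowest bin, where 20.3% of genes were called lower, to 0.34 in the highest, where 18.1% were called higher. After each library's trend with length and GC content was removed, 520 genes (4% of 13009) were higher and 120 (0.922%) lower. Of the 950 rises with a known length and GC content 442 passed both ways, and of the 669 falls 107 did. Whether this trend arose in library preparation or in the cells was not tested. Corrected values are given beside the results, with the calls that were lost. The correction also removes any true change that follows GC content.

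**Figure D2:**
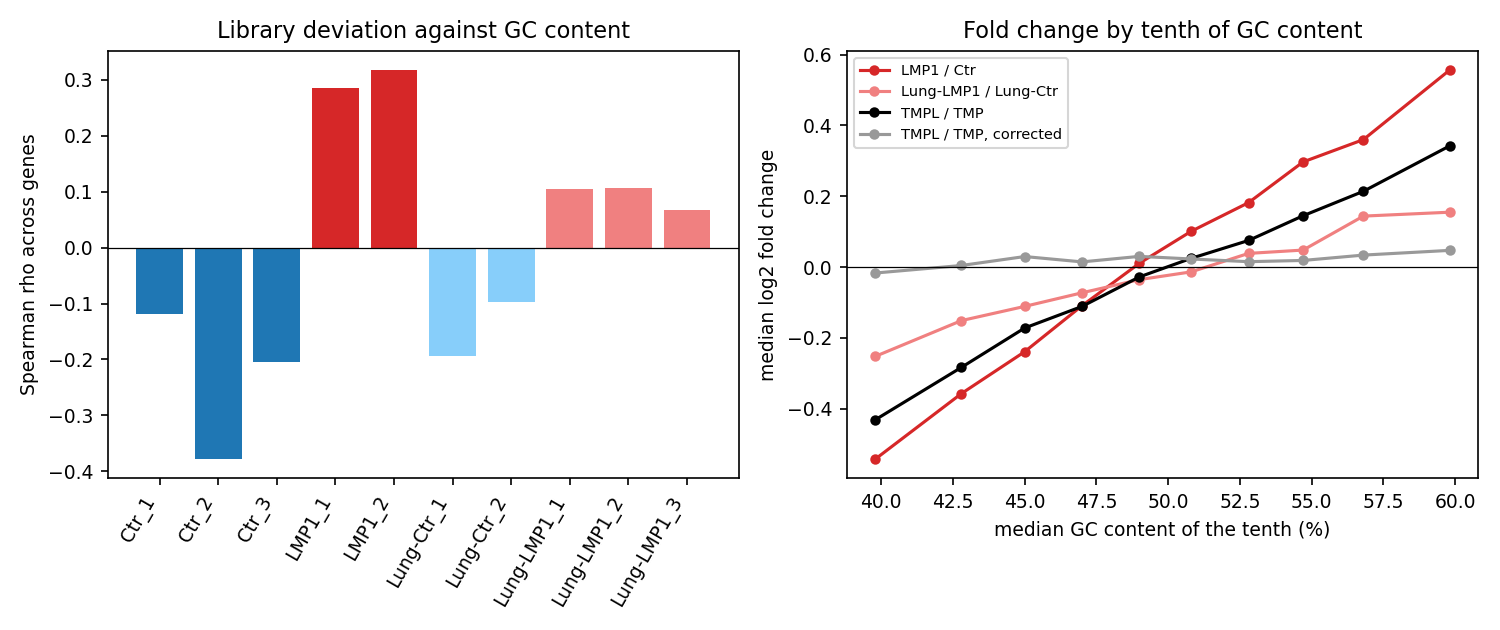
Left, Spearman rho across 13009 genes between each library's deviation from the all-library mean and GC content, negative in all 5 TMP libraries (blue) and positive in all 5 TMPL libraries (red). Right, median log2 fold change in 10 bins of GC content for each stratum, for both together and after correction. Uncorrected medians run from -0.43 to 0.34 for both strata together, from -0.542 to 0.556 without the prefix and from -0.252 to 0.155 with it. The corrected end bins lie at -0.0167 and 0.0472.

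The 12 shared rises with the largest smaller-stratum change among genes of a mean log2 CPM of at least 3 were Atp5k, Lcn2, Tmsb10, Pdzrn3, H1fx, Ppp1r14b, Polr2j, Mrps21, Tmem238, Rps28, Cd3eap and Rpl28. They were chosen on these contrasts, so their separation is a description. Atp5k (chr5:108433244-108434448, minus strand, GRCm38), which encodes a subunit of the mitochondrial ATP synthase, stood at 8.46, 2.08 and 3.65 CPM in Ctr, 2.05 and 1.21 in Lung-Ctr, 41.4 and 40.3 in LMP1, and 37.7, 28.3 and 25.3 in Lung-LMP1. The lowest TMPL library was thus well above the highest TMP library. Its log2 fold change was 3.64 ± 0.435 (adjusted p = 0.00475), or 3.43 (adjusted p = 0.00868) after correction for length and GC content, with 3.11 and 4.22 in the strata without and with the prefix.

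Tmsb10 (chr6:72957347-72958748, minus strand), which encodes the actin-binding peptide thymosin beta 10, measured 37.9, 9.91 and 15.8 CPM in Ctr, 18.6 and 8.53 in Lung-Ctr, 106 and 132 in LMP1, and 91.4, 91 and 94.3 in Lung-LMP1. No TMPL library overlapped a TMP library, and the 3 Lung-LMP1 values lay close together. The log2 fold change was 2.63 ± 0.371 (adjusted p = 0.00553; 2.33 and 0.0107 after correction). Pdzrn3 (chr6:101149609-101377897, minus strand), an E3 ubiquitin ligase with PDZ domains, was at 19.1, 39 and 33.1 CPM in Ctr and 13 and 13.4 in Lung-Ctr, and reached 140 and 144 in LMP1 and 70.8, 55.3 and 31.6 in Lung-LMP1. It separated within each stratum, while Lung-LMP1 replicate 3 fell below 2 of the Ctr libraries. Its log2 fold change was 2.11 ± 0.254 (adjusted p = 0.00479; 2.01 and 0.009 after correction).

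Lcn2 (chr2:32384633-32388252, minus strand) encodes lipocalin 2, an iron-siderophore-binding secreted protein and a known NF-kB target. Ctr held 208, 310 and 40.4 CPM, Lung-Ctr 16.1 and 6.32, LMP1 1500 and 1890, and Lung-LMP1 19.8, 219 and 44.1. Within each stratum TMPL was higher, but 2 of the 3 Lung-LMP1 values lay inside the range of Ctr and the other below it, and the separation of Lung-LMP1 from Lung-Ctr was from 16.1 to 19.8 CPM at its narrowest. Its log2 fold change of 3.13 ± 0.747 (adjusted p = 0.0279; 2.97 and 0.0479 after correction) did not pass without LMP1 replicate 1 (adjusted p = 0.0748), LMP1 replicate 2 (0.0989), Ctr replicate 1 (0.0547) or Lung-Ctr replicate 2 (0.0581).

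Several of the 12 encode parts of the machinery of transcription and translation. Polr2j, a subunit of RNA polymerase II, lay at 6.84 to 12.4 CPM in TMP and 30.1 to 47.1 in TMPL (log2 fold change 2.05 ± 0.229, adjusted p = 0.0039). Mrps21, a mitochondrial ribosomal protein, was at 7.48 to 13.6 CPM in TMP and 26.9 to 40.6 in TMPL (1.94 ± 0.192, adjusted p = 0.00326). Cd3eap, a subunit of RNA polymerase I that transcribes ribosomal RNA, measured 4.05 to 12 CPM in TMP and 12.6 to 40.6 in TMPL (1.90 ± 0.375, adjusted p = 0.0146). In all 3 the genotypes did not overlap in any library, and Cd3eap lost its call without LMP1 replicate 1 (0.0532) or 2 (0.0626). The cytosolic ribosomal proteins Rpl28 (87.9 to 244 CPM in TMP, 461 to 675 in TMPL) and Rps28 (41 to 94.1 and 160 to 229) rose by 1.91 ± 0.268 and 1.85 ± 0.219 on the log2 scale (adjusted p = 0.00543 and 0.00443). In the strata without and with the prefix the log2 fold changes were 1.88 and 2.23 for Polr2j, 2.01 and 1.87 for Mrps21, 2.03 and 1.76 for Cd3eap, 2.08 and 1.73 for Rpl28, and 1.85 and 1.86 for Rps28. Ribosomal protein genes have many processed copies in the genome, so how their reads were assigned is uncertain.

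The remaining 3 were Ppp1r14b, an inhibitor of protein phosphatase 1 (27.2 to 45.6 CPM in TMP, 73.3 to 195 in TMPL), the linker histone gene H1fx (2.19 to 11 and 9.47 to 55.3) and the membrane protein gene Tmem238 (4.77 to 13.2 and 22.5 to 49.3). After correction, 11 of the 12 kept their call, and Tmem238 had an adjusted p of 0.053 (0.0507 without LMP1 replicate 2). H1fx fell from 2.32 to 1.56 on the log2 scale and Ppp1r14b from 2.17 to 1.59. Ppp1r14b, Polr2j, Rps28, Cd3eap, Rpl28 and H1fx overlap a gene of the opposite strand that the tables also count (Plcb3, Lrwd1, Kank3, Ercc1, Ube2s and Gm5577), and the strand of counting is not stated, so reads of these pairs cannot be told apart.

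**Figure D3:**
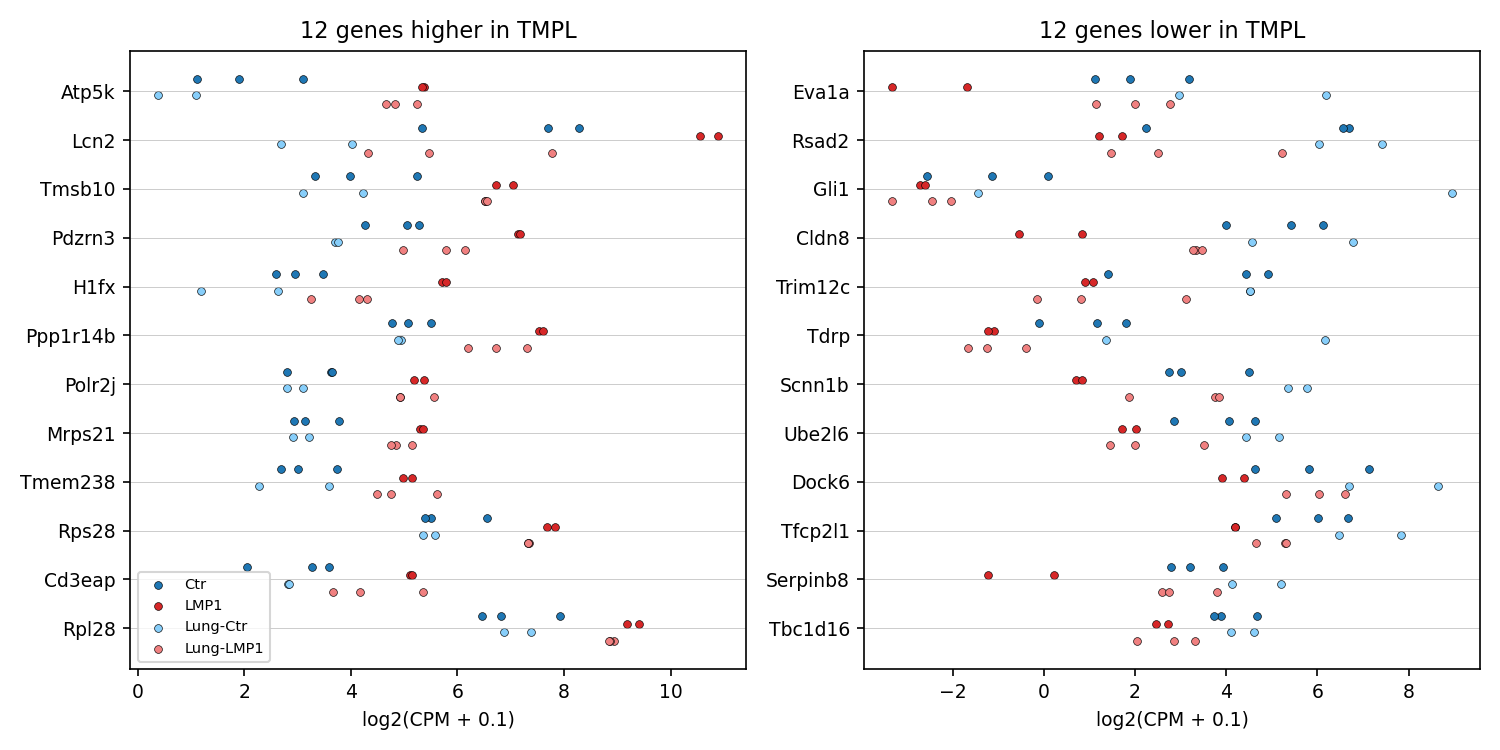
Expression of the 12 named rises (left) and falls (right) in each of the 10 libraries, as log2(CPM + 0.1), coloured by group. Atp5k, Tmsb10, Polr2j and Mrps21 separate in all TMP and TMPL libraries, whereas in Gli1 and Tdrp a single Lung-Ctr library stands far above the rest.

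The 12 shared falls chosen the same way were Eva1a, Rsad2, Gli1, Cldn8, Trim12c, Tdrp, Scnn1b, Ube2l6, Dock6, Tfcp2l1, Serpinb8 and Tbc1d16. Genes of epithelial transport and barrier were among them, and the epithelial marker sums were lowest in the LMP1 libraries too, whose part in these falls was not tested. Cldn8 (chr16:88560828-88563183, minus strand), a tight junction claudin, measured 42.7, 15.8 and 69.9 CPM in Ctr, 23.4 and 109 in Lung-Ctr, 0.581 and 1.69 in LMP1, and 10, 9.54 and 11 in Lung-LMP1. All TMPL libraries lay below all TMP libraries, most of all LMP1, and the log2 fold change was -3.87 ± 0.757 (adjusted p = 0.0146; -3.57 and 0.0299 after correction). Scnn1b (chr7:121865038-121918514, plus strand), the beta subunit of the epithelial sodium channel, was at 22.5, 6.65 and 7.98 CPM in Ctr, 40.9 and 54.4 in Lung-Ctr, 1.53 and 1.69 in LMP1, and 3.56, 13.3 and 14.2 in Lung-LMP1. It fell by 2.55 on the log2 scale (SE 0.488, adjusted p = 0.0132; -2.66 and 0.0165 after correction) and overlaps Cog7 on the other strand. Without LMP1 replicate 2 the adjusted p was 0.0634 for Scnn1b and 0.0741 for Cldn8, and without LMP1 replicate 1 it was 0.055 for Scnn1b. Tfcp2l1 (chr1:118627945-118685168, plus strand), an epithelial transcription factor of the grainyhead family, ranged from 33.9 to 227 CPM in TMP and from 18.1 to 39.3 in TMPL. Its log2 fold change was -2.03 ± 0.343 (adjusted p = 0.00886; -1.93 and 0.025 after correction), although Ctr replicate 2 at 33.9 CPM lay below 2 Lung-LMP1 libraries. It was called in each fit that left out 1 library.

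Tbc1d16 (13.1 to 25.5 CPM in TMP, 4 to 9.88 in TMPL), which encodes a GTPase-activating protein for Rab proteins, fell by 1.57 on the log2 scale (SE 0.297, adjusted p = 0.0127; 0.0529 without LMP1 replicate 1 and 0.0541 without LMP1 replicate 2), with no overlap in any library, with -1.57 and -1.56 in the strata, and kept its call after correction (0.0165). Dock6, a guanine nucleotide exchange factor for Rac and Cdc42, spanned 24.6 to 401 CPM in TMP and 14.9 to 97.8 in TMPL (-1.97 ± 0.531, adjusted p = 0.0418). Serpinb8, a serine protease inhibitor, spanned 6.86 to 36.5 and 0.326 to 13.9 CPM (-2.67 ± 0.617, adjusted p = 0.0245). Both lost their call after correction (adjusted p = 0.0509 and 0.0514). Dock6 also lost it in 7 of the 10 fits without 1 library (0.0582 to 0.142; all but Ctr 2, Lung-Ctr 2 and Lung-LMP1 2), and Serpinb8 without either LMP1 library, Lung-Ctr replicate 2 or Lung-LMP1 replicate 1 (0.0532 to 0.0956).

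The size of 3 falls rests on 1 library. Gli1, the transcription factor of Hedgehog signalling, was at 493 CPM in Lung-Ctr replicate 1 and at most 0.964 CPM in the other TMP libraries, against at most 0.145 CPM, under the 3-count limit, in every TMPL library. It reached the level for naming through that library alone, and its separation without the prefix was 1 count in Ctr replicate 2 (0.0693 CPM) against 1 count in each LMP1 library (0.0528 and 0.0651 CPM), below the same limit. Tdrp was at 71.5 CPM in Lung-Ctr replicate 2 and 0.826 to 3.39 CPM in the other TMP libraries, with 0.218 to 0.659 in TMPL. Eva1a was at 73.2 CPM in Lung-Ctr replicate 1 and 2.08 to 9.02 CPM in the other TMP libraries, with 0 to 6.69 in TMPL. Tdrp and Eva1a, like Gli1, reached the level for naming only through their 1 high library. Without Lung-Ctr replicate 1 the adjusted p was 0.152 for Gli1 and 0.0877 for Eva1a. Tdrp kept its call without Lung-Ctr replicate 2, but had an adjusted p of 0.0531 after correction. The 3 calls were also lost without either LMP1 library (0.0551 to 0.0821), Gli1 and Tdrp without any 1 of the Lung-LMP1 libraries (0.0557 to 0.0765), and Tdrp without Ctr replicate 2 (0.059).

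**Figure D4:**
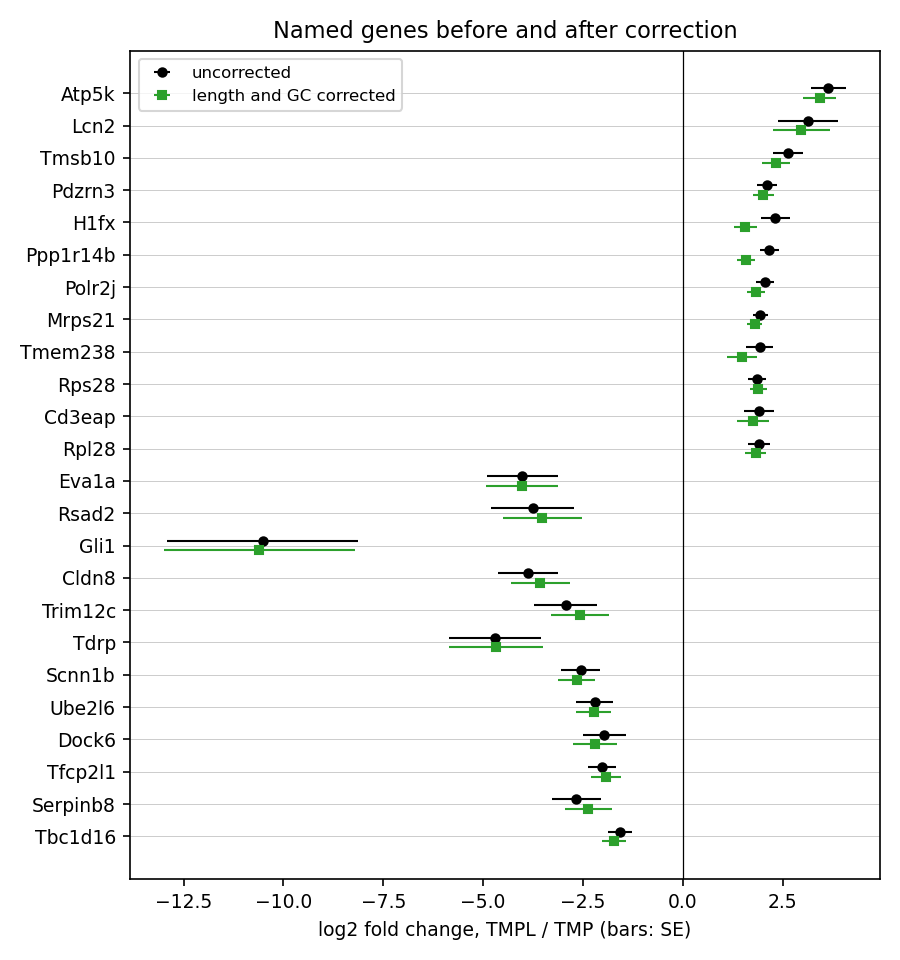
Log2 fold change of TMPL against TMP for the 24 named genes, with its standard error, before (black) and after (green) correction for transcript length and GC content. All 24 kept their direction, and Gli1, with a standard error of 2.39, is the least precise.

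Interferon-stimulated genes are switched on when cells sense viral nucleic acid or receive interferon. Every member tested had a lower fitted level in TMPL, although few passed the test. Of 38 tested, 4 were called lower (Cxcl10, Dtx3l, Rsad2 and Trim25) and none higher, beside 5.13% of all genes lower. The genotypes did not overlap in both strata, with TMPL lower, in 6 of the 38, beside 8.05% of all genes tested. All 38 had a negative log2 fold change, with a median of -2.71 against -0.05 for all genes tested, and medians of -4.33 and -1.46 in the strata without and with the prefix. An unadjusted p under 0.05 was found for 26 of the 38, beside 30.3% of all genes tested. DESeq2 called 26 lower and none higher, beside 1748 lower and 1387 higher of all 13460 genes. After correction the median was -2.82 with 2 calls, Cxcl10 and Trim25. Their median GC content was 48.2%, against 49.9% for all genes. Leukocyte markers summed to 0.278 to 2.66 CPM in TMP and 0.498 to 3.38 in TMPL, with overlapping ranges.

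Rsad2 (chr12:26442746-26456452, minus strand), which encodes the antiviral enzyme viperin, measured 104, 94.8 and 4.61 CPM in Ctr, 171 and 65.6 in Lung-Ctr, 3.17 and 2.21 in LMP1, and 2.69, 37.5 and 5.6 in Lung-LMP1. Ctr replicate 3 was close to the TMPL libraries and Lung-LMP1 replicate 2 was the highest of them. Ctr replicate 3 was the lowest TMP library in 36 of the 38 genes, and Lung-LMP1 replicate 2 the highest TMPL library in 36 of the 38. The log2 fold change was -3.76 ± 1.04 (adjusted p = 0.0453; -3.52 and 0.074 after correction). Trim25, an E3 ligase that activates RIG-I signalling, lay at 230 to 413 CPM in TMP and 155 to 248 in TMPL, and fell by 0.93 (SE 0.17, adjusted p = 0.0113; -0.89 and 0.0183 after correction), with -1.01 and -0.85 in the strata. Cxcl10, a chemokine that attracts T cells, was at 17 to 68.7 CPM in TMP and 1.27 to 17.5 in TMPL, and fell by 3.48 (SE 0.775, adjusted p = 0.0225; -3.36 and 0.0327 after correction). Its strata did not both separate, because Lung-LMP1 replicate 2 at 17.5 CPM was above Lung-Ctr replicate 2 at 17. These calls rest on few libraries: without LMP1 replicate 1 the adjusted p was 0.139 for Rsad2, 0.0831 for Cxcl10 and 0.052 for Trim25, and without LMP1 replicate 2 it was 0.156, 0.101 and 0.0534. Rsad2 also missed without Ctr 1, Ctr 2, Lung-Ctr 1, Lung-LMP1 1 or Lung-LMP1 3 (0.0699 to 0.0849), and Cxcl10 without Lung-Ctr 1 or Lung-LMP1 1 (0.0518 and 0.0508). Dtx3l (adjusted p = 0.0474; 0.0835 after correction) missed in 8 of the 10 fits, all but Ctr 3 and Lung-LMP1 2 (0.0696 to 0.156).

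Ifit1, an inhibitor of viral translation, did not pass the test. It was at 31.1, 76.4 and 1.93 CPM in Ctr, 47 and 24.8 in Lung-Ctr, 0.37 and 0 in LMP1, and 6.54, 20.4 and 2.72 in Lung-LMP1, with a log2 fold change of -4.15 ± 1.61 (adjusted p = 0.118). Among the 12 named falls, Ube2l6, the conjugating enzyme for the ubiquitin-like protein ISG15, spanned 7.09 to 35.4 CPM in TMP and 2.64 to 11.3 in TMPL. It fell by 2.21 (SE 0.467, adjusted p = 0.0181; -2.23 and 0.0245 after correction). Trim12c, of a mouse Trim family related to antiviral Trim5, spanned 2.55 to 30.3 CPM and 0.799 to 8.58 CPM, and fell by 2.94 (SE 0.782, adjusted p = 0.0398; adjusted p = 0.0746 after correction). Near-identical Trim12 copies make its counts uncertain. Ube2l6 lost its call without LMP1 replicate 1 (0.0607) or 2 (0.0766), and Trim12c in 8 of the 10 fits without 1 library, all but Ctr 3 and Lung-LMP1 2 (0.054 to 0.137).

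The interferon-stimulated response element, the promoter motif bound by the ISGF3 complex and by IRF factors, was searched as TTTC, any 2 bases and TTTC on both strands, in the 300 bases from 250 before to 50 after each RefSeq start (GRCm38.p6). It was present in 12 of 26 interferon-stimulated genes with a promoter entry (46.2%), in 362 of 10171 genes tested (3.56%) and in 23 of 522 genes called lower (4.41%). For 3 genes described above, 1 match each is shown on the gene's strand, in capitals with up to 40 bases on either side. A match is a description and not a site.
Rsad2, chr12:26456523-26456612: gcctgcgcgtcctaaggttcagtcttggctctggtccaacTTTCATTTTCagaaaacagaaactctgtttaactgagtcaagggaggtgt
Cxcl10, chr5:92349053-92349139: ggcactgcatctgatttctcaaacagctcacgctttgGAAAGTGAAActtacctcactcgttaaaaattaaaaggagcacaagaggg
Ifit1, chr19:34640745-34640834: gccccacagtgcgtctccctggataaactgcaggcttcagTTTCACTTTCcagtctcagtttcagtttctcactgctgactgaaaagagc
The Cxcl10 match reads on the opposite strand to the gene. A further Ifit1 match, with its first base 85 before the start, lies in lower case within the stretch shown. The E-box CACGTG bound by Myc and its partner Max was found in 107 of 786 genes called higher (13.6%) beside 11.6% of all genes, and the kappa B motif (GGGA, any base and TTTCC, both strands) in 4 of 786 (0.509%) beside 0.541%.

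MHC class I antigen presentation, the display of peptides to CD8 T cells, also held falls and no rise. Of 18 genes, 5 were called lower and none higher, beside 5.13% and 7.22% of all genes tested, with a median log2 fold change of -1.01. Psmb8, an immunoproteasome subunit, measured 10.6, 13.4 and 2.75 CPM in Ctr, 23.6 and 9.67 in Lung-Ctr, 1.48 and 1.24 in LMP1, and 1.53, 5.19 and 0.577 in Lung-LMP1. It fell by 2.74 (SE 0.641, adjusted p = 0.0253; -2.81 and 0.0346 after correction) and separated in both strata. Tap1, which carries peptides into the endoplasmic reticulum, lay at 14.7 to 73.7 CPM in TMP and 5.44 to 49.6 in TMPL. Its log2 fold change was -1.94 ± 0.522 (adjusted p = 0.0412), or -2.08 (adjusted p = 0.0488) after correction, with -2.44 and -1.46 in the strata. Unlike the other calls of this list, Tap1 was not followed in the fits without 1 library. Psmb9 (adjusted p = 0.04), the peptide-trimming enzyme gene Erap1 (0.0331) and the nonclassical class I gene H2-M3 (0.0234) were the other 3, of which H2-M3 also kept its call after correction (0.0318). DESeq2 called 8 of the 18 lower and none higher, beside 1748 lower and 1387 higher of all 13460 genes. Psmb8 lost its call without LMP1 replicate 1 (0.0792) or 2 (0.0989), Ctr 2, Lung-Ctr 1 or Lung-LMP1 1 (0.0528 to 0.0586), and H2-M3 without either LMP1 library or Lung-LMP1 3 (0.052 to 0.0854). Psmb9 was lost in 7 and Erap1 in 5 of the 10 fits without 1 library, both without either LMP1 library and without Ctr 2 and Lung-LMP1 3 among them (0.0506 to 0.154).

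In the list set as TRAF adaptors and LMP1 signalling partners, 3 of 25 genes were called lower (Ikbkg, Lims1 and Tab3) and none higher. This stood beside 5.13% of all genes called lower and 7.22% higher, and the list's median log2 fold change was -0.0457. Ikbkg, the regulatory subunit of the IkB kinase, was at 71.6 to 107 CPM in TMP and 50.1 to 66.9 in TMPL and fell by 0.64 (SE 0.124, adjusted p = 0.0138), with -0.53 and -0.75 in the strata, but none of the 3 was called after correction, and Ikbkg had an adjusted p of 0.0636 without LMP1 replicate 2. NF-kB subunits and inhibitors included 3 rises of 14 and no fall, beside 7.22% of all genes called higher and 5.13% lower. Rela, the p65 subunit that carries the transactivation domain, measured 67, 64.9 and 63.5 CPM in Ctr, 71.8 and 46 in Lung-Ctr, 119 and 127 in LMP1, and 104, 120 and 92 in Lung-LMP1. No TMPL library overlapped TMP, and Rela rose by 0.88 (SE 0.138, adjusted p = 0.007; 0.61 and 0.047 after correction). Bcl3 and Nfkbib, an atypical and a classical IkB protein, rose as well (adjusted p = 0.0277 and 0.0155) but had an adjusted p of 0.0966 and 0.097 after correction, and neither passed without either LMP1 library (0.0551 to 0.107) or, for Bcl3, without Ctr 2 (0.0621).

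NF-kB target genes did not move one way. Of 28 tested, Lcn2 rose and Cxcl10, Gadd45b and Plau fell, beside 7.22% of all genes called higher and 5.13% lower, with a median of -0.27. Plau, the urokinase protease of matrix breakdown, was at 107 to 186 CPM in TMP and 11 to 98.5 in TMPL, lowest in LMP1 at 11 and 16.1, and fell by 2.13 (SE 0.508, adjusted p = 0.0278; -2.06 and 0.0419 after correction). Gadd45b, a stress-response gene, fell by 0.78 (SE 0.2, adjusted p = 0.034; 0.0234 after correction). Plau lost its call without either LMP1 library (0.0913 and 0.131), Ctr 2 or Lung-LMP1 1 (0.0509 and 0.0586), and Gadd45b in 6 fits without 1 library (both LMP1, Ctr 2, Lung-Ctr 1, Lung-LMP1 1 and 3; 0.0604 to 0.139). Of 21 JAK-STAT genes and 13 EGF receptor and ligand genes none was called by edgeR, with Stat6 (adjusted p = 0.055) and Erbb3 (0.205) the nearest. At an unadjusted p under 0.05 there were 5 and 0 of them, beside 30.3% of all genes tested. DESeq2 called 2 and 1, beside 1387 higher and 1748 lower of all 13460 genes. Among 25 ERK feedback and immediate early genes, Fosl1, Ier5 and Jund rose and Spred1 fell, beside the same shares of all genes. Fosl1, an AP-1 transcription factor, ran from 0.806 to 2.12 CPM in TMP and from 3.38 to 12.4 in TMPL (log2 fold change 2.26 ± 0.443, adjusted p = 0.0139; 0.0391 after correction and 0.0961 without LMP1 replicate 2). Ier5 kept its call after correction (0.015), while Jund and Spred1 lost their calls after correction (adjusted p = 0.119 and 0.136) and without either LMP1 library (0.0524 to 0.0636).

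Ribosome biogenesis genes had higher fitted levels in TMPL in nearly every member. Of 39 genes 10 rose and none fell, beside 7.22% of all genes tested called higher. A positive log2 fold change was found for 38, and the median was 0.57 (0.51 and 0.78 in the strata without and with the prefix, 0.71 after correction). After correction 6 of the list were called, and of the 10 only Fbl, Gar1, Nhp2, Pes1 and Polr1a kept their call, while Mrto4, Nob1, Nolc1, Ppan and Rrp9 lost it. Fbl, the methyltransferase of ribosomal RNA, was at 102, 85.4 and 125 CPM in Ctr, 74.9 and 72.9 in Lung-Ctr, 213 and 219 in LMP1, and 257, 135 and 197 in Lung-LMP1. No TMPL library overlapped TMP, and Fbl rose by 1.23 (SE 0.189, adjusted p = 0.00686; 1.20 and 0.0177 after correction). Gar1 and Nhp2, subunits of the H/ACA particles that modify ribosomal RNA, and Pes1, a factor of large subunit assembly, rose too (adjusted p = 0.00795, 0.0114 and 0.0102), and all 3 kept their call after correction, while without LMP1 replicate 2 Nhp2 and Pes1 had an adjusted p of 0.0541 and 0.0521. DESeq2 called 14 of the list higher and none lower, beside 1387 higher and 1748 lower of all 13460 genes. Nucleolin (Ncl), at 1120 to 2170 CPM in TMP and 1460 to 3220 in TMPL, did not pass (0.58 ± 0.251, adjusted p = 0.153). Myc's dimer partner Max (55 to 64.4 CPM in TMP, 61.9 to 112 in TMPL) and the Max-binding repressor Mnt (21.1 to 31.2 and 34.3 to 67.2) rose with Myc (adjusted p = 0.0241 and 0.0102). These were 3 of the 12 genes in that list, beside 7.22% of all genes tested, and Max had an adjusted p of 0.0543 after correction. Max was lost without LMP1 replicate 1 (0.0737) or 2 (0.106) and Mnt without LMP1 replicate 2 (0.0521).

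Lists of 4 large complexes were picked after their values were seen, so their counts are descriptions only. Over all genes tested, 7.22% were called higher and 5.13% lower, and 4% and 0.922% after correction. Of 13 RNA polymerase II subunit genes 7 rose (6 after correction, median 0.64), of 76 mitochondrial ribosomal protein genes 18 rose and none fell (18 and none after correction), and of 27 Sf3a, Sf3b and Snrp splicing genes 11 rose and Snrpe fell (10 and none after correction). Cytosolic ribosomal protein genes split, with 22 rising and 7 falling of 79 (16 and 3 after correction). Rplp2, of the ribosomal stalk, was at 465 to 777 CPM in TMP and 364 to 460 in TMPL (-0.58 ± 0.143, adjusted p = 0.0297; 0.0327 after correction), opposite to Rpl28. The oxidative phosphorylation list, set with the design, had a median of 0.0118 and 14 of 28 genes positive. Atp5o, Cox5b and Ndufb8 rose, also after correction, and Uqcrc2 fell but lost its call after correction (0.206). Without either LMP1 library Ndufb8 and Uqcrc2 did not pass (0.0758 to 0.119), nor did Uqcrc2 without Lung-Ctr 2 or Lung-LMP1 1 (0.0543 and 0.0534).

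The integrated stress transcription factor Atf4, which induces amino acid synthesis and transport, was among the most evenly separated genes. It measured 257, 177 and 189 CPM in Ctr, 205 and 188 in Lung-Ctr, 536 and 495 in LMP1, and 445, 515 and 557 in Lung-LMP1. The strata agreed closely in log2 fold change, 1.31 and 1.36, and the pooled value was 1.34 ± 0.127 (adjusted p = 0.00326; 1.20 and 0.00702 after correction). Of 33 ATF4 stress genes, 6 rose and none fell, with a median of 0.12, beside 7.22% of all genes tested called higher and 5.13% lower. Slc3a2, the heavy chain of amino acid transporters, rose by 0.94 (SE 0.181, adjusted p = 0.0134; 0.87 and 0.0292 after correction), and had an adjusted p of 0.0581 without LMP1 replicate 1, while Atf5, Cebpb, Phgdh and Shmt2 lost their calls after correction. Of 21 unfolded protein response genes none rose and 2 fell, beside the same shares of all genes. They were Edem1, which clears misfolded glycoproteins (118 to 128 CPM in TMP, 74.1 to 92.7 in TMPL; adjusted p = 0.00828, and 0.0425 after correction), and Dnajc3 (0.0457; 0.429 after correction; lost in 9 of the 10 fits without 1 library, all but Lung-Ctr 2). Among tRNA synthetase genes, Kars (126 to 187 and 230 to 309 CPM; adjusted p = 0.00479, and 0.009 after correction) and Wars (0.0209; 0.083 after correction; 0.0661 and 0.076 without LMP1 replicates 1 and 2) rose, 2 of 20 beside 7.22% of all genes tested.

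The sterol, fatty acid and glycolysis lists held rises and no fall, beside 7.22% of all genes tested called higher and 5.13% lower. Sterol synthesis had 6 rises of 25 (3 after correction), among them Mvd, an enzyme of the mevalonate pathway (19.5 to 31.6 CPM in TMP, 42.2 to 68 in TMPL; 0.99 ± 0.132, adjusted p = 0.00479; 0.73 and 0.0161 after correction; 0.90 and 1.09 in the strata). Fatty acid synthesis had 4 of 15 (Acaca, Elovl1, Fasn and Srebf1), none of which kept its call after correction. Glycolysis had 3 of 19, of which Pkm, the last enzyme of the pathway, was at 1580 to 2260 CPM in TMP and 2970 to 4930 in TMPL (0.94 ± 0.163, adjusted p = 0.00947; 0.73 and 0.0327 after correction; 1.25 and 0.64 in the strata). Gapdh and Tpi1 also rose, and Tpi1 lost its call after correction (0.0589) and without Ctr 2, Ctr 3, either LMP1 library or Lung-Ctr 2 (0.0564 to 0.124), Gapdh without either LMP1 library (0.0504 and 0.0941). No hypoxia response gene of 20 and no NRF2 or glutathione gene of 18 was called by edgeR. At an unadjusted p under 0.05 there were 1 and 5, beside 30.3% of all genes tested. DESeq2 called 0 and 5, beside 1387 higher and 1748 lower of all 13460 genes. The hypoxia list had a median of -0.345 with 16 of 20 genes negative (-0.56 and 0.00313 in the strata without and with the prefix).

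Cell cycle lists were mixed, beside 7.22% of all genes tested called higher and 5.13% lower. S phase genes had 29 of 30 positive and a median of 0.44, mostly from the stratum with the prefix (0.0992 without it and 0.673 with it). Cdt1, Chaf1a and Pola2 passed, none after correction, and each lost its call in 6 to 8 of the 10 fits without 1 library (0.0502 to 0.129), both LMP1 libraries among them. Of 27 mitosis genes, the kinase Plk1 rose (55 to 109 CPM in TMP, 138 to 179 in TMPL; 0.99 ± 0.175, adjusted p = 0.01; 0.84 and 0.0245 after correction; 0.0521 without LMP1 replicate 2; 0.90 and 1.07 in the strata), whereas Anln, Bub1 and Ube2c fell. After correction Anln (0.105) and Bub1 (0.243) were not called and Ube2c was (0.0226). Ube2c lost its call in 8 of the 10 fits without 1 library, all but Ctr 2 and Lung-Ctr 1 (0.0539 to 0.117), Bub1 without either LMP1 library, Lung-Ctr 2 or Lung-LMP1 1 (0.054 to 0.116), and Anln without either LMP1 library (0.0765 and 0.084). p53 target genes had 2 rises of 22, beside 7.22% of all genes, the pore protein gene Bax (22.2 to 35.3 and 38.2 to 64.7 CPM; adjusted p = 0.00809) and Gtse1 (0.019), both lost after correction, with a list median of -0.18.

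Identity genes had large medians but no call in edgeR's test of both strata together. Of 28 epithelial identity, 23 basal and 21 squamous differentiation genes none passed it, with medians of -0.85, -2.07 and -1.30. At an unadjusted p under 0.05 there were 9, 3 and 2, beside 30.3% of all genes tested. DESeq2 called 9, 10 and 5 lower and none higher, beside 1748 lower and 1387 higher of all 13460 genes. These medians came from the stratum without the prefix, at -1.80, -4.76 and -4.21, whereas with the prefix they were 0.0391, -0.00442 and 0.86. Krt5, the basal keratin, was at 658, 424 and 1800 CPM in Ctr, 20.1 and 2020 in Lung-Ctr, 4.33 and 12.2 in LMP1, and 1890, 597 and 1390 in Lung-LMP1. The low values sat in LMP1 and in 1 Lung-Ctr library, so the genotypes overlapped. Of 24 EMT and mesenchymal genes 2 rose, beside 7.22% of all genes, with list medians of 1.34 and -0.41 in the strata without and with the prefix. They were Lgals1, which encodes the secreted lectin galectin 1, and S100a4. Lgals1 measured 14.2, 39.1 and 21.2 CPM in Ctr, 7.27 and 8.26 in Lung-Ctr, 317 and 353 in LMP1, and 20.1, 19.5 and 20.3 in Lung-LMP1, so Lung-LMP1 exceeded Lung-Ctr but lay within Ctr (2.59 ± 0.483, adjusted p = 0.0122; 0.0288 after correction). S100a4 (adjusted p = 0.0221; 0.0375 after correction) lost its call without LMP1 replicate 1 (0.0723) or 2 (0.0822). Col3a1, Dcn and Pdgfrb were also high in both LMP1 libraries and in Ctr replicate 2, which had the highest Lgals1 and S100a4 of the TMP libraries, and their part in these rises was not tested. Of 17 Notch genes Notch2 and Mfng rose, beside 7.22% of all genes, and kept their calls after correction but not without either LMP1 library (0.0712 to 0.0922) or, for Notch2, Lung-LMP1 1 (0.0513). Of 20 Wnt genes Lgr4 fell, beside 5.13% of all genes, and lost its call after correction (0.18) and in 7 of the 10 fits without 1 library, all but Ctr 3, Lung-Ctr 1 and Lung-LMP1 1 (0.0522 to 0.146).

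**Figure D5:**
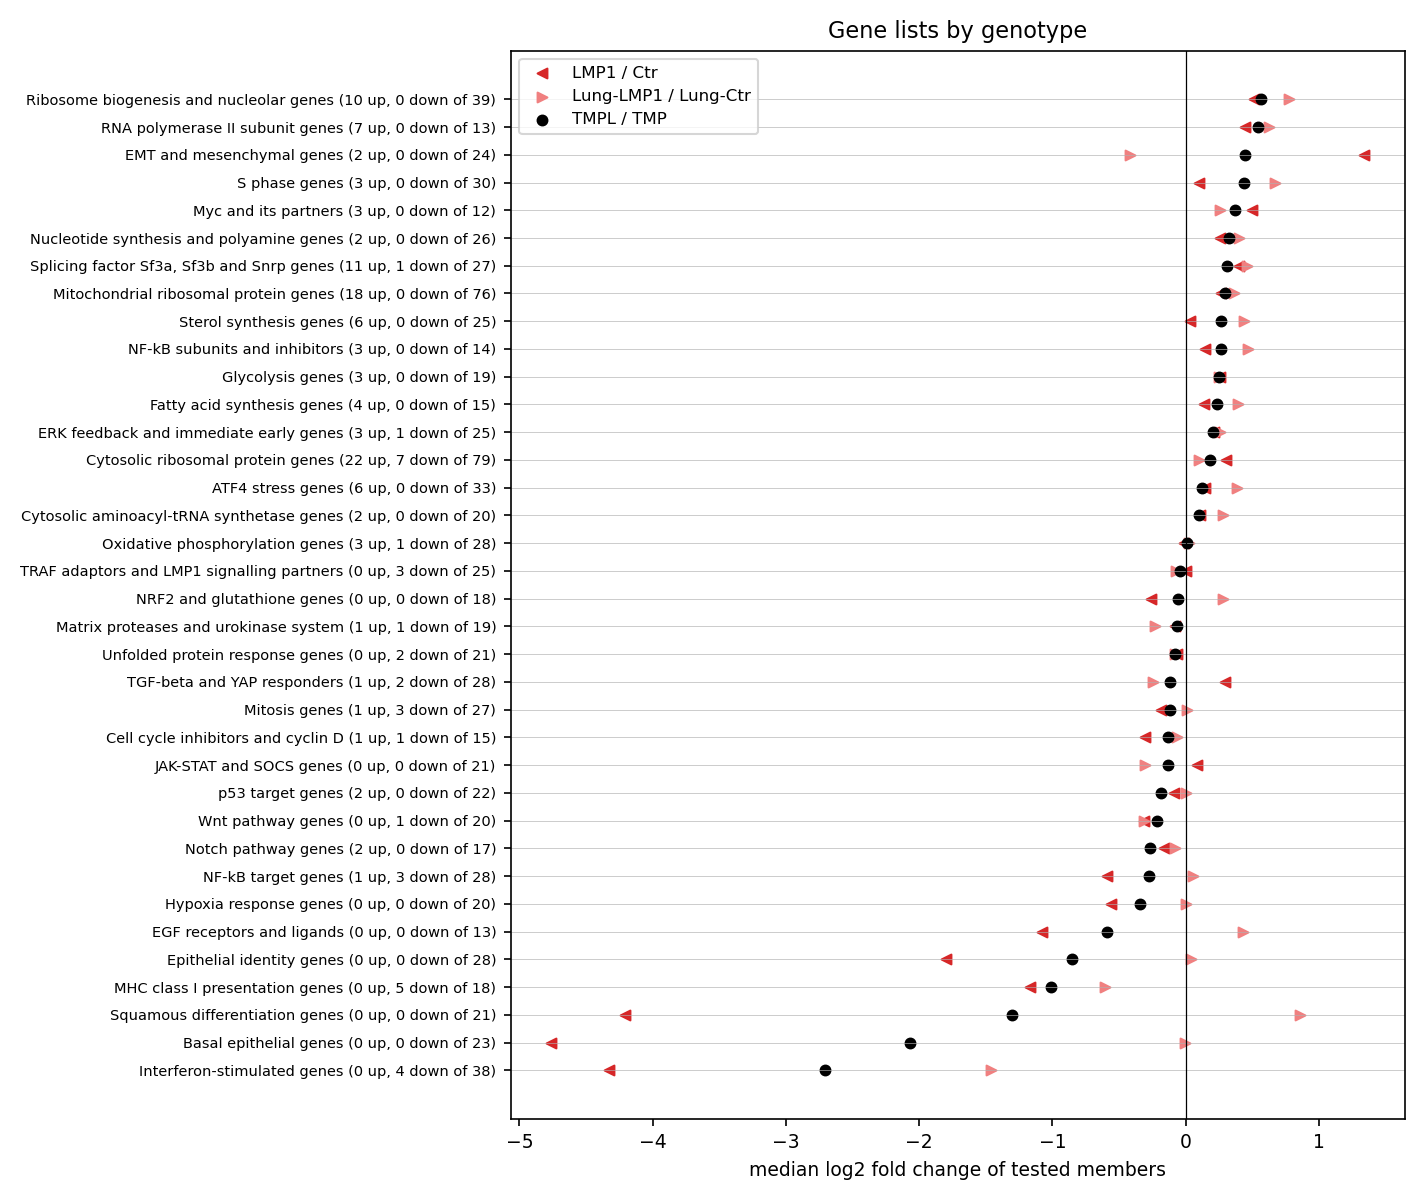
Median log2 fold change of the tested members of each gene list for TMPL against TMP (black) and in each stratum (red), with counts of members called higher and lower. Interferon-stimulated genes have the lowest median, -2.71, and ribosome biogenesis genes the highest, 0.57.

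In 3 genes named for the interaction, Apobec1, Psapl1 and Ap1m2, the genotype difference itself differed between strata. Ap1m2, an epithelial clathrin adaptor subunit, measured 95.8, 68.2 and 108 CPM in Ctr, 123 and 108 in Lung-Ctr, 2.75 and 4.88 in LMP1, and 90.8, 102 and 90.7 in Lung-LMP1. The LMP1 libraries alone stood apart, with a log2 fold change of -4.57 against Ctr and -0.29 between the Lung-prefixed groups (interaction adjusted p = 0.00716).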

How the data were processed

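Polyadenylated RNA of 10 tumour organoid libraries was analysed. Per the submitters' processing notes, the authors used STAR, DESeq2, DESeq and mm10. Which tool counted, with what annotation, strand setting and versions, is not given in the sources used here. Values analysed were raw counts, as named per the file headers, deposited as 5 tables of 24421 gene symbols and joined by symbol. The 13 columns repeating a library were identical and counted once, 26 of 27 symbols turned into dates were restored, and 41 per-sample columns were not used. Of the symbols, 23511 matched GENCODE vM21 (GRCm38), which gave positions, length and GC content.

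The tests were run in edgeR 4.0.16 (R 4.3.3): filterByExpr by the 4 groups, TMM, robust quasi-likelihood F-test with genotype and Lung prefix (7 residual degrees of freedom), and Benjamini-Hochberg adjustment over 13460 genes at an adjusted p under 0.05. Strata and interaction used 1 mean per group (6 residual degrees of freedom). Trends of each library with length and GC content were removed with mgcv 1.9.3 as offsets. DESeq2 1.42.0 was an alternative, with other size factors, filters, designs and left-out libraries. In data simulated for this comparison over 13226 genes, the test recovered 46% of 100 genes changed by 1 and 87% of 100 changed by 2 on the log2 scale, with 8 false calls. The simulation had no Lung prefix effect, no difference between strata and no GC trend, and its changed genes had a mean CPM of at least 8. The false calls therefore do not measure those to be expected in the real libraries.

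Named genes were Trp53, Cdkn2a and Myc, in each direction the 12 shared calls with the largest smaller-stratum change among genes of a mean log2 CPM of at least 3 and no predicted symbol, up to 4 genes of smallest adjusted p in each list, and those of smallest adjusted p for the interaction, of which 1 is not reported here. Other genes named were chosen after their values were seen. The comparison and lists were chosen with earlier results of these data known. No library pair within a group differed by as little as sampling noise. The 2 LMP1 libraries were the most alike, with a chi-square per degree of freedom of 14.1, against 32.7 to 130 for the other pairs. Whether they are separate animals or cultures is not in the labels. Promoter sequences are from RefSeq (GRCm38.p6).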

Additional observations from a re-analysis of the deposited data

Results flagged for a closer look

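The genotype difference differed between libraries without and with the Lung prefix in 3 named genes, by edgeR's interaction test with Benjamini-Hochberg adjustment over 13460 genes. These are Apobec1 (adjusted p = 0.00414), Psapl1 (0.00414) and Ap1m2 (0.00716). Apobec1, a cytidine deaminase of messenger RNA, was at 70.1 to 111 CPM in Ctr, 127 and 134 in Lung-Ctr, 4.17 and 4.95 in LMP1, and 89 to 109 in Lung-LMP1. Psapl1, a prosaposin-like gene, was at 8.89 to 14.1 CPM in Ctr, 11.8 and 10 in Lung-Ctr, 0.422 and 0.195 in LMP1, and 22.5 to 32 in Lung-LMP1, so LMP1 was lower than Ctr while Lung-LMP1 was higher than Lung-Ctr. In these 3 genes the LMP1 libraries were the low ones, and these libraries also had the lowest epithelial and basal marker sums. The part of cell makeup in these differences was not tested.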

How the results depend on the processing

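Counts of genes higher and lower in TMPL (972 and 691; shared by both strata, 890 and 600) depended on the setting. DESeq2 gave 1748 lower (960 shared), no term for the Lung prefix 325 lower (312 shared), and equal weights for the strata 1293 lower. Correction for length and GC content gave 520 higher and 120 lower (505 and 115 shared). Only the stratum with the Lung prefix, and leaving out both LMP1 libraries, gave 0 and 0 with edgeR (1706 and 1841 genes at an unadjusted p under 0.05). Leaving out 1 library at a time gave 229 to 1039 higher (229 to 989 shared) and 34 to 988 lower (34 to 958 shared). Without LMP1 replicate 1 there were 328 higher and 96 lower, and without LMP1 replicate 2, 229 and 34. Lower calls numbered 382 without Ctr replicate 2, 369 without Lung-LMP1 replicate 1 and 415 without Lung-LMP1 replicate 3. Where this left a group with 1 library, it was assumed to vary like the others. Of the 24 named genes, LMP1 replicate 1 removed 2 rises and 10 falls from the calls and LMP1 replicate 2 removed 3 and 11. The replicate block gave 528 higher and 257 lower (516 and 247 shared) and kept 12 rises and 8 falls. Same-numbered libraries correlated at -0.461 to 0.275 in their deviations from group means. In groups of 2 libraries these deviations mirror each other, so the check cannot tell whether the numbers pair libraries. LMP1 against Ctr gave 3576 genes with DESeq2, 937 after correction and 25 to 2621 when 1 library was left out. Lung-LMP1 against Lung-Ctr gave 881 with DESeq2 and 0 to 33 with 1 library left out, and the interaction 926 with DESeq2 and 4 to 331. List medians moved to 0.0492 for Myc and its partners and -0.323 for p53 targets among genes of a mean log2 CPM of at least 3, and after correction to -0.0793 for p53 targets, 0.364 for fatty acid synthesis and 0.0789, a change of sign, for mitosis. Psapl1 changed sign to 0.604 without the prefix term, 0.0191 and 0.0498 without LMP1 replicates 1 and 2 (-3.32 to 0.0498 with 1 library left out), and 1.36 both in the Lung stratum alone and without both LMP1 libraries. Cdkn2a changed sign to -0.159 after correction, -0.00169 without Lung-Ctr replicate 1 (-0.00169 to 0.623 with 1 library left out), -0.107 in the Lung stratum alone and -0.113 without both LMP1 libraries. The cause was not tested.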
